A study of Mus musculus with 15 samples.

Results

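Tight junction genes were followed in 15 RNA-seq libraries of a mouse embryonic stem cell line with an inducible knockdown of Smarcb1, which encodes a subunit found in BAF remodellers of chromatin. The set consisted of 9 genes, taken by their names from 55228 genes listed, with earlier results of these data known: the claudins Cldn3, Cldn4, Cldn6, Cldn7 and Cldn9, the membrane proteins Ocln and F11r, and the scaffold genes Tjp1 and Tjp3. All 9 were found in every library, each with 1 value per library. The line, 81K1, is 1 clone made from the OG2 embryonic stem cell line. It carries an shRNA against Smarcb1 at the Rosa26 locus under a doxycycline-dependent promoter, and it was grown on gelatine in medium with serum and LIF. Untreated 81K1 cells formed the groups 48 h ctrl and 240 h ctrl, and cells given 1 µg doxycycline per ml medium every day formed the groups 48 h kd, 72 h kd and 240 h kd, with 3 libraries per group. The cassette was thus present in the controls as well, and an effect of doxycycline itself cannot be told apart from that of the shRNA in these libraries.

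Tight junctions seal the space between neighbouring epithelial cells near their apical side. Claudins are membrane-spanning proteins that form the strands of the junction, and different claudins close or open these strands to different ions. Occludin joins the strands, and the immunoglobulin-like adhesion molecule JAM-A, encoded by F11r, lies beside them. Inside the cell the scaffold proteins ZO-1 (Tjp1) and ZO-3 (Tjp3) bind the tails of these proteins and link them to actin. Mouse embryonic stem cells grow as compact colonies and express E-cadherin and several junction genes, and they lose epithelial genes when they pass into mesenchymal states.

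At 240 h of knockdown, 4 of 8 members tested fell, where 4.12% of all genes did, to between 39.8% and 43.8% of the control mean: the claudins Cldn4, Cldn6 and Cldn7 and the scaffold gene Tjp3. Cldn6 and Cldn7 were already lower at 48 h, at 51.2% and 48.6% of control. At 72 h Cldn3 and Cldn9 rose to 212% and 224% of the 48 h control. Cldn6 and Cldn7, at 71.6% and 66.7% of that control, were not called at 72 h, and against the 240 h controls their log2 fold changes were -0.045 and -0.18. The log2 fold change of Tjp1 lay between -0.13 and 0.01 at the 3 times and was not called.

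The deposited spans follow mm10. Neighbouring claudin genes form pairs on chromosomes 5 and 17: Cldn4 (ENSMUSG00000047501.3) at chr5:134945119-134946934 on the minus strand and Cldn3 (ENSMUSG00000070473.4) at chr5:134986214-134987472 on the plus strand, and Cldn6 (ENSMUSG00000023906.3) at chr17:23679249-23682446 on the plus strand and Cldn9 (ENSMUSG00000066720.7) at chr17:23682584-23684026 on the minus strand. The other claudin gene is Cldn7 (ENSMUSG00000018569.12) at chr11:69964779-69967885 on the plus strand. The adhesion genes are Ocln (ENSMUSG00000021638.12) at chr13:100496507-100552718 on the minus strand and F11r (ENSMUSG00000038235.4) at chr1:171437535-171464603 on the plus strand, and the scaffold genes Tjp1 (ENSMUSG00000030516.14) at chr7:65296165-65527781 on the minus strand and Tjp3 (ENSMUSG00000034917.8) at chr10:81273207-81291581 on the minus strand. Each value covers the whole span of its gene, and the spans of Cldn3, Cldn4 and Cldn9 consist of 1 exon.

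The 4 members that fell at 240 h lie on 4 different chromosomes, and the sequence before their transcription start is shown here because these genes share a call. The windows are taken from RefSeq (GRCm38.p6), end at the last base before the gene span used for the deposited values, and read 5' to 3' on the strand of the gene. Capitals mark the letters CACCTG or their reverse complement CAGGTG, the E-box bound by Zeb and Snail factors. The Cldn4 window is chr5:134946935-134947184 on the minus strand, the Tjp3 window chr10:81291582-81291831 on the minus strand, the Cldn6 window chr17:23679115-23679248 on the plus strand and the Cldn7 window chr11:69964529-69964778 on the plus strand.
Cldn4: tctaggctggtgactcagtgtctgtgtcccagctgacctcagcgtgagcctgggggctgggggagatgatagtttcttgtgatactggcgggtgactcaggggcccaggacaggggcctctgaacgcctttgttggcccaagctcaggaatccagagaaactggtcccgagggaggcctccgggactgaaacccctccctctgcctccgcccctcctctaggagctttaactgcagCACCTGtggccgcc
Tjp3: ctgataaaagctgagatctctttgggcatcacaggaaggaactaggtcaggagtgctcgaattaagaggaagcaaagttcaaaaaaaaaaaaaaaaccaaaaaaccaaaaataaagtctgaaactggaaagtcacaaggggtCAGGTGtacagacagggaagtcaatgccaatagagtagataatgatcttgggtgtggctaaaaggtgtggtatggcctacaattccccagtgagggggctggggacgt
Cldn6: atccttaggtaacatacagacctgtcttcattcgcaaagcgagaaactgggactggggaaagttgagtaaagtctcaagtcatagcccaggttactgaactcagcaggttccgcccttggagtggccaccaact
Cldn7: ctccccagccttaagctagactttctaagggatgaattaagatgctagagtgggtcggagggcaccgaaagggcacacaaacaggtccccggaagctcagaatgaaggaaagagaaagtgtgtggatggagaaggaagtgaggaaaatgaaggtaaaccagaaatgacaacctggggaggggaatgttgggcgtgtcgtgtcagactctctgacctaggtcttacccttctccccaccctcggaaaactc

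RefSeq promoters were found for 8 of the 9 members, and Cldn9 had no entry. In the 250 bases before the RefSeq start, CACCTG on either strand was present in 4 of these 8 members, namely Cldn4, Cldn6, Tjp3 and F11r, against 17.2% of 32851 promoters of the same length. It began 14 bases before the start in Cldn4, 108 in Tjp3, 93 in Cldn6 and 122 in F11r. The Cldn6 match falls in the last 116 bases of its window, which lie inside the deposited gene span and are not printed. The letters AACCGGTT, a site of the grainyhead-like factors, were present in 0 of the 8 members and in 0.116% of all promoters. The 2 motifs do not overlap. The GC content of the windows ranged from 43.2% in Tjp3 to 64.0% in Ocln, with a median of 52.4% over all promoters. A match is only a stretch of letters and does not show binding.

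Depth was similar in all groups, with 11074998 to 14515300 reads per library. Smarcb1 was lower in every knockdown library than in any control library, with log2 fold changes of -2.33 at 48 h, -2.48 at 72 h and -2.21 at 240 h. In the 15 pairs of replicates, chi-square per degree of freedom over genes was 1.30 to 11.3, so none was closer than sampling allows. Replicate 2 of 48 h kd stood apart, as mitochondrial genes took 2.35% of its reads and 0.469% to 1.81% elsewhere. The lowest share, 0.469%, belonged to 240 h ctrl replicate 3, whose chi-square values per degree of freedom of 8.89 and 5.02 against the other libraries of its group were above the 2.23 between those. All 10 stem cell markers examined were detected in every group. Their summed level was 2646 to 2747 FPKM in 72 h kd and 1658 to 2194 FPKM in the other groups. Of these markers, 3 were called in a knockdown comparison and are named after their values were seen. Dppa5a was called higher at 72 h with a log2 fold change of 1.04, as 1 of 10 markers tested, against 8.23% of all genes. Dppa5a alone had 765 FPKM in 48 h ctrl and 1570 FPKM in 72 h kd, so the higher sum in 72 h kd rests largely on it. Esrrb with -0.78 and Zfp42 with -0.58 were called lower at 240 h, at 57.6% and 66.8% of control. These were 2 of 10 markers, against 4.12% of all genes. For 14 primitive endoderm markers the sums were 7.41 to 7.69 FPKM in the 48 h controls, 6.33 to 7.53 after 48 h and 6.24 to 6.62 after 72 h of knockdown, and 7.46 to 8.47 in the 240 h controls against 10.4 to 10.8 in 240 h kd. For 12 trophoblast markers they were 9.97 to 10.8 FPKM in the 48 h controls, 6.12 to 6.82 after 48 h and 17.3 to 18.0 after 72 h, and 8.75 to 9.31 in the 240 h controls against 13.5 to 13.8 in 240 h kd. These sums rest on few genes, since 12 of the 14 and 11 of the 12 markers had a mean under 0.5 FPKM. Sparc alone had 4.04 FPKM in 240 h ctrl and 7.20 after 240 h of knockdown, and Tfap2c alone had 8.77 FPKM in 48 h ctrl, 5.69 after 48 h, 16.6 after 72 h and 7.33 and 11.5 at 240 h without and with knockdown. Among markers averaging 10 or more reads, the only endoderm marker called at 48 h and 72 h was Sox7, lower, of 9 tested. At 240 h, Sparc and Amn were called higher and Sox7 lower of 10 tested, with a median log2 fold change of 0.28. Of the trophoblast markers, Tfap2c, Tead4 and Eomes were called lower at 48 h, all 3 tested, while at 72 h Tfap2c was called higher and Tead4 lower of 3. At 240 h, Hand1, Cdx2, Krt7 and Tfap2c were called higher and Tead4 and Eomes lower of 7 tested, with a median of 0.64. Tpbpa and Prl3d1, which define later trophoblast cells, were at 0 in all libraries. The sums for 9 fibroblast markers were 1.64 to 2.13 FPKM in the 48 h and 72 h groups, and 1.93 to 2.28 in the 240 h controls against 3.02 to 3.60 in 240 h kd. Of these, Thy1 was called lower at 48 h and 72 h of 5 tested, and Col1a1 and Twist1 were called higher at 240 h of 6. Those of 7 neural progenitor markers were 9.41 to 10.7 FPKM in the 48 h controls and 9.72 to 10.6 in the 240 h controls, below 15.9 to 17.7 in 48 h kd, 22.4 to 24.3 in 72 h kd and 21.7 to 23.0 in 240 h kd. Sox1 alone had 4.69 and 5.23 FPKM in the controls and 11.7, 15.8 and 15.5 at the 3 knockdown times. Of 4 neural markers tested, Sox1 was called higher and Pax6 lower at 48 h, Sox1 and Msi1 higher and Pax6 lower at 72 h, and Sox1 and Nes higher and none lower at 240 h. The medians were -0.011, 0.41 and 0.42. Of all genes averaging 10 or more reads, 2.12% were called higher and 2.35% lower at 48 h, 8.11% and 5.61% at 72 h, and 5.21% and 4.75% at 240 h. Their median log2 fold changes were 0.0054, 0.0095 and 0.0054. The markers given by name are those called in these lists, and were named after their values were seen. In bulk RNA, fewer cells that express a gene and less RNA per cell cannot be told apart, and the part of these markers in the results on junction genes was not tested. Nothing in the labels says whether replicates came from separate cultures, so p-values measure only the spread between libraries.

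The values are FPKM over the whole gene span, introns included, so they are comparable between libraries for 1 gene but not between genes. For an order of abundance, the same reads were scaled to the exonic length in place of the span (exonic FPKM). On this scale Cldn4 was the most abundant member in 48 h ctrl with an exonic FPKM of 52.8 ± 2.17 (SD, n = 3). It was followed by Tjp1 with 25.2 ± 0.578, Cldn6 with 23.9 ± 1.28 and F11r with 17.0 ± 0.145. Lower levels were measured for Cldn7 with 9.69 ± 0.613, Tjp3 with 6.66 ± 0.461 and Ocln with 4.74 ± 0.147. Cldn3 with 3.09 ± 0.136 and Cldn9 with 0.805 ± 0.115 were the least abundant. Tjp1 and Cldn6 differed by about the SD of Cldn6. In 240 h kd the order had changed: Tjp1 stood highest with 28.5 ± 0.183, then Cldn4 with 20.9 ± 1.41, F11r with 17.7 ± 0.682 and Cldn6 with 7.17 ± 0.601. Intronic reads are included in this measure for all members but Cldn3, Cldn4 and Cldn9, so the order is uncertain for the others. Exons make up 3.37% of the span in Tjp1, 7.51% in Ocln, 9.84% in F11r, 20.2% in Tjp3, 53.8% in Cldn6 and 62.7% in Cldn7.

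**Figure D1:**
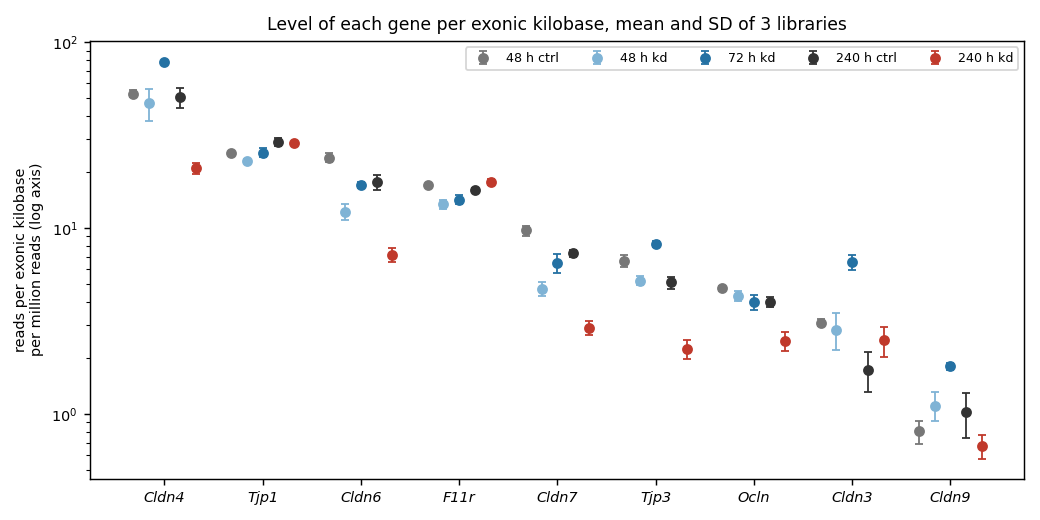
Level of each of the 9 genes as exonic FPKM (reads per exonic kilobase, scaled to the library total) on a log axis, with points for the mean and bars for the SD of 3 libraries in each of the 5 groups. Cldn4 is the highest member in every group but 240 h kd, where Tjp1 with 28.5 lies above Cldn4 with 20.9.

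Setting 48 h kd against its controls asks which members had changed at the earliest time after induction. A gene was called where limma gave a Benjamini-Hochberg adjusted p-value under 0.05 over all genes tested and an absolute log2 fold change above 0.58. Of the 8 members with a mean of at least 0.5 FPKM, 2 were called, both lower, against 3.99% of 11420 genes called in either direction, 2.01% called lower and 1.99% called higher. The median log2 fold change was -0.25 over these 8 members and 0.01 over all genes tested.

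Cldn6, a claudin of early embryonic epithelia, measured 13.4, 12.1 and 13.1 FPKM in 48 h ctrl, against 7.36, 6.16 and 6.24 FPKM in 48 h kd, from 221 to 589 reads per library. The libraries of the groups did not overlap, as was the case for 39.4% of all genes tested. The log2 fold change was -0.96 (SE 0.08, 95% confidence interval -1.17 to -0.75, adjusted p = 0.0029). Cldn7, a claudin that binds the adhesion molecule EpCAM, measured 5.77, 5.95 and 6.51 FPKM in 48 h ctrl, against 3.24, 2.72 and 2.91 FPKM in 48 h kd. All 3 kd libraries lay below all 3 ctrl libraries, with a log2 fold change of -1.02 (SE 0.08, adjusted p = 0.00235).

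Tjp3 and F11r passed the p-value but not the fold threshold at 48 h. Tjp3, the ZO scaffold that is largely restricted to epithelia, measured 1.31, 1.28 and 1.45 FPKM in 48 h ctrl, against 1.09, 1.08 and 0.983 in 48 h kd, a log2 fold change of -0.33 (SE 0.07, adjusted p = 0.0323). F11r measured 1.65 to 1.68 FPKM in 48 h ctrl, against 1.25 to 1.39 in 48 h kd, a log2 fold change of -0.32 (SE 0.05, adjusted p = 0.0119). In both genes the groups did not overlap.

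The remaining members overlapped between the groups or missed the p-value at 48 h. Cldn4 measured 51.5, 51.7 and 55.3 FPKM in 48 h ctrl, against 54.6, 36.8 and 49.6 in 48 h kd, and its lowest value belonged to 48 h kd replicate 2, the library with the most mitochondrial reads. Its log2 fold change was -0.19 (95% confidence interval -0.56 to 0.18, adjusted p = 0.44), and -0.022 without that library. The same library gave the lowest Cldn3 value, 2.10 FPKM against 3.17 and 3.23 in the other kd libraries, and without it the log2 fold change of Cldn3 turned from -0.15 to 0.048. Cldn9 had a log2 fold change of 0.41 from 11 to 22 reads per library (adjusted p = 0.125), and Tjp1 one of -0.13 (adjusted p = 0.199).

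**Figure D2:**
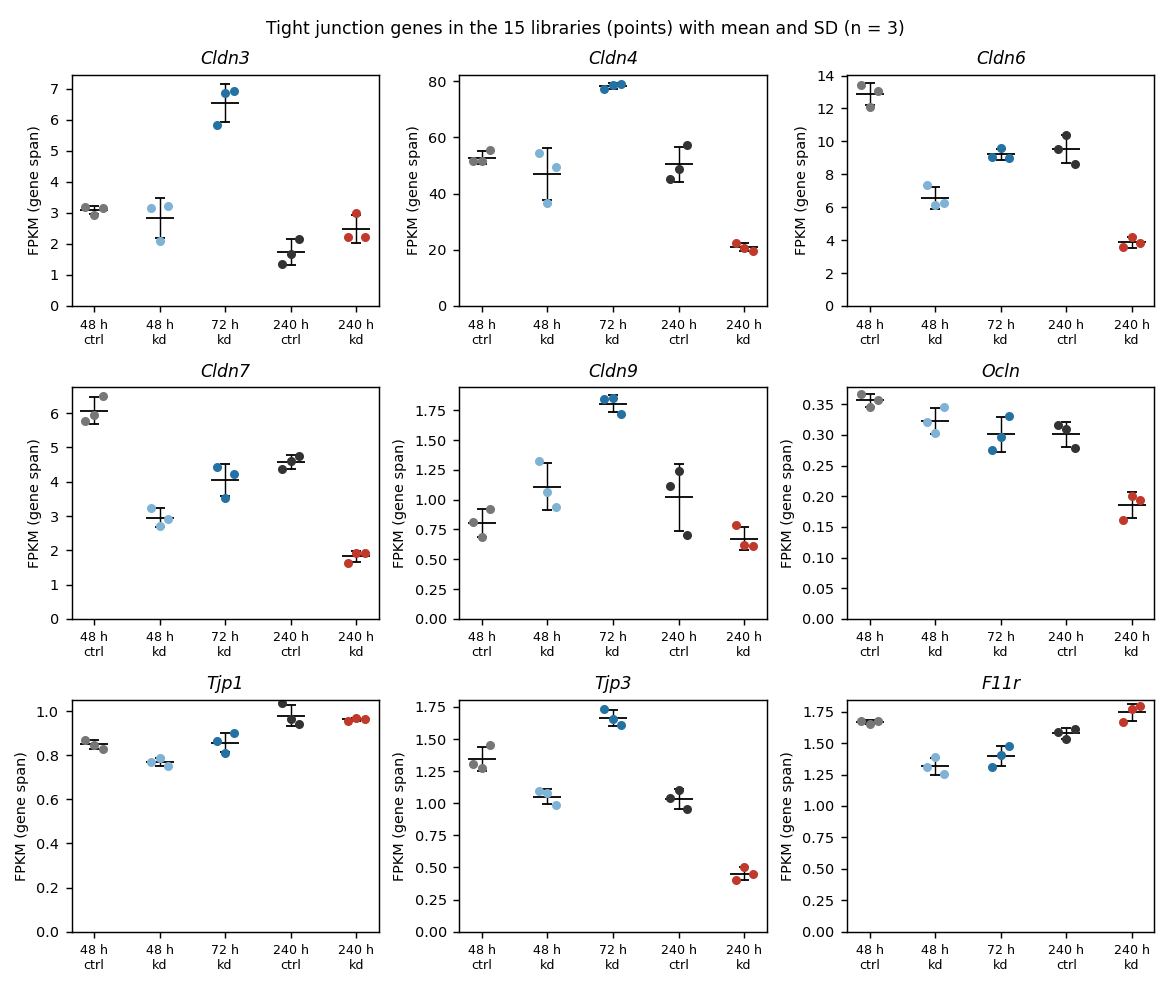
FPKM over the gene span of each of the 9 genes in the 5 groups, with 1 point per library, a bar at the mean and whiskers for the SD (n = 3), all axes from 0. Cldn6 and Cldn7 are below 48 h ctrl in all 3 kd groups, Cldn3, Cldn4, Cldn9 and Tjp3 peak in 72 h kd, and Tjp1 stays between 0.754 and 1.04 FPKM.

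The 72 h kd libraries have no control of their own and were set against 48 h ctrl, so both early comparisons share the same 3 control libraries. Of 8 members tested, 2 were called at 72 h, both higher, against 13.5% of 11440 genes called in either direction, 8.23% called higher and 5.30% called lower. The median log2 fold change was 0.15 over the members and 0.01 over all genes.

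The called members, Cldn3 and Cldn9, had few reads. Cldn3, a barrier-forming claudin, measured 3.18, 2.94 and 3.16 FPKM in 48 h ctrl, against 5.83, 6.88 and 6.94 in 72 h kd, from 41 to 55 and 94 to 116 reads. Its log2 fold change was 1.06 (SE 0.08, adjusted p = 0.000238). Cldn9 measured 0.808, 0.688 and 0.918 FPKM in 48 h ctrl, against 1.84, 1.85 and 1.72 in 72 h kd, from 11 to 16 and 33 to 34 reads. Its log2 fold change was 1.08 (SE 0.10, adjusted p = 0.000481). For both genes every 72 h kd library was above every control library, which held for 64.7% of all genes in one direction or the other.

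Cldn4 and Cldn7 lay on opposite sides of their controls, both just short of the fold threshold. Cldn4, a claudin typical of sealing epithelia, measured 77.1, 78.7 and 79.1 FPKM in 72 h kd, above its 51.5 to 55.3 FPKM in 48 h ctrl, with a log2 fold change of 0.57 (SE 0.04, adjusted p = 0.000164). Cldn4 was called in 4 of 19 alternatives. Among these were the fit without 48 h ctrl replicate 3 (0.60) and that against 240 h ctrl in place of 48 h ctrl (0.64). Cldn7 measured 4.43, 3.52 and 4.22 FPKM in 72 h kd, with a log2 fold change of -0.577 (SE 0.10, adjusted p = 0.0042). Cldn7 was called in 8 of 19 alternatives. Among these were 4 of the 6 fits that left out 1 library. The values were -0.61 without 48 h ctrl replicate 1, -0.59 without 48 h ctrl replicate 2, -0.64 without 72 h kd replicate 1 and -0.61 without 72 h kd replicate 3. Against 240 h ctrl, however, the value of Cldn7 was -0.18 (adjusted p = 0.15). Cldn6, at 9.04, 9.62 and 8.97 FPKM, had a log2 fold change of -0.48 (adjusted p = 0.000821), with no overlap with 48 h ctrl. Against 240 h ctrl, which the 72 h kd libraries did overlap, it was -0.045 (adjusted p = 0.624).

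Tjp3 measured 1.73, 1.65 and 1.61 FPKM in 72 h kd, above all control libraries, a log2 fold change of 0.29 (adjusted p = 0.00845), and 0.64 against 240 h ctrl, where it was called. F11r measured 1.31, 1.40 and 1.47 FPKM, below all control libraries, with a log2 fold change of -0.24 (adjusted p = 0.00769). Tjp1 had a log2 fold change of 0.01 (95% confidence interval -0.12 to 0.15, adjusted p = 0.86).

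Setting 240 h kd against its own controls asks what had changed after prolonged knockdown, against a control of the same age. Of 8 members tested, 4 were called, all lower, against 8.91% of 11401 genes called in either direction, 4.12% called lower and 4.79% called higher. The median log2 fold change was -0.77 over the members and -0.0016 over all genes. The groups did not overlap in these 4 genes, as in 50.2% of all genes tested.

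Cldn4 measured 45.0, 48.9 and 57.3 FPKM in 240 h ctrl, against 22.5, 20.7 and 19.7 in 240 h kd, from 1017 to 1331 and 487 to 545 reads. All 3 kd libraries were below every control library, and the log2 fold change was -1.26 (SE 0.10, adjusted p = 0.000589). Cldn6 measured 9.55, 10.4 and 8.65 FPKM in 240 h ctrl, against 3.56, 4.20 and 3.81 in 240 h kd, a log2 fold change of -1.28 (SE 0.09, adjusted p = 0.00037). Cldn7 measured 4.37, 4.60 and 4.75 FPKM in 240 h ctrl, against 1.64, 1.91 and 1.91 in 240 h kd, a log2 fold change of -1.29 (SE 0.07, adjusted p = 0.000182). Tjp3 measured 1.04, 1.10 and 0.952 FPKM in 240 h ctrl, against 0.400, 0.506 and 0.448 in 240 h kd, a log2 fold change of -1.04 (SE 0.10, adjusted p = 0.00107). The mean of Tjp3 in 240 h kd was 43.8% of control, and because 0.1 FPKM is added before the logarithm the fitted fold understates such low values. With 1 FPKM added the value was -0.48 and the call was lost.

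Ocln, which encodes occludin, lay under the 0.5 FPKM minimum in all libraries because its span of 56212 bases is mostly intron, although 119 to 283 reads were counted. It measured 0.316, 0.309 and 0.278 FPKM in 240 h ctrl, against 0.161, 0.201 and 0.195 in 240 h kd, with no overlap and a mean of 61.6% of control. In a fit of every gene that averaged 10 or more reads, its log2 fold change was -0.11 at 48 h (adjusted p = 0.271), -0.19 at 72 h (adjusted p = 0.0492) and -0.49 at 240 h (adjusted p = 0.00371), none past the fold threshold. On recovered reads with limma voom, which adds no FPKM, the 240 h value was -0.70 (SE 0.11, adjusted p = 3.89e-05), and Ocln was then called.

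The 4 other members were not called at 240 h. Cldn3 measured 1.34, 1.68 and 2.17 FPKM in 240 h ctrl, against 2.23, 3.01 and 2.22 in 240 h kd, from 21 to 55 reads, a log2 fold change of 0.51 (95% confidence interval 0.01 to 1.01, adjusted p = 0.104). Cldn9 measured 1.11, 1.24 and 0.704 FPKM in 240 h ctrl, against 0.789, 0.621 and 0.611 in 240 h kd, a log2 fold change of -0.51 from 12 to 22 reads (adjusted p = 0.124). Both were called without 240 h ctrl replicate 3, which stood apart from the other libraries of its group as given above and was the library with the highest Cldn3 and the lowest Cldn9 value of its group, at 0.68 and -0.73. F11r had a log2 fold change of 0.14 (adjusted p = 0.0594) and Tjp1 one of -0.02 (95% confidence interval -0.15 to 0.11, adjusted p = 0.771).

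**Figure D3:**
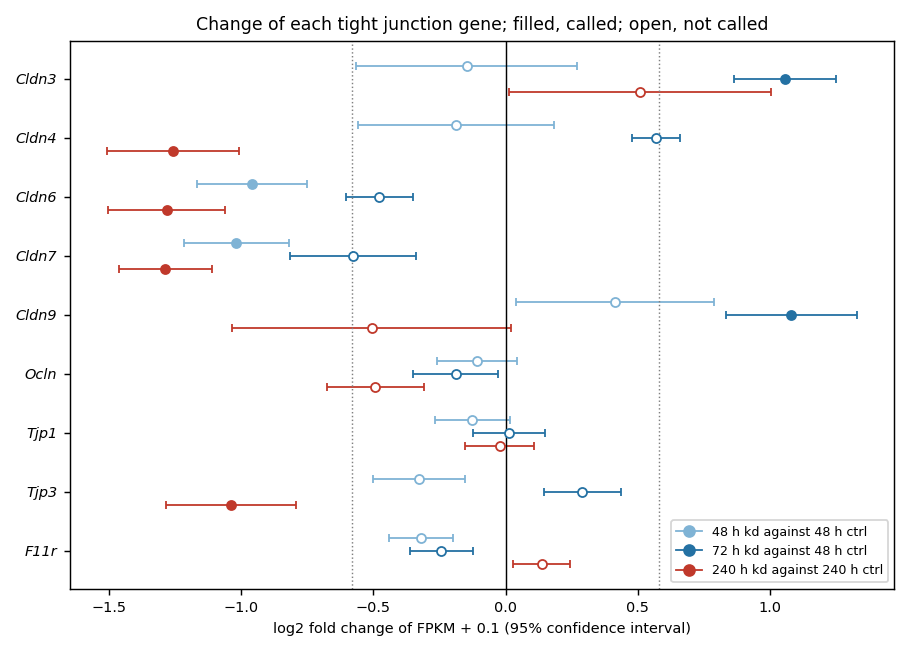
Log2 fold change of each of the 9 genes on the FPKM + 0.1 scale in the 3 knockdown comparisons, with 95% confidence intervals, dotted lines at the fold threshold of 0.58, and filled points for called genes; Ocln is from the fit of genes with at least 10 reads. Cldn6 and Cldn7 lie left of 0 in all 3 comparisons, while Cldn4, Cldn9 and Tjp3 lie right of 0 at 72 h and left of it at 240 h.

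Whether the effect at 240 h differed from that at 48 h was tested with an interaction term over 12 libraries. It was called in 2 of 8 members, both more negative at 240 h, against 5.82% of 11412 genes called in either direction and 3.10% called more negative. The difference was -1.07 for Cldn4 (SE 0.19, adjusted p = 0.00498) and -0.71 for Tjp3 (SE 0.12, adjusted p = 0.00339), the latter -0.29 and not called with 1 FPKM added. The difference for Cldn9 was -0.92 (adjusted p = 0.0521), just short of a call. It was called in 3 of 23 alternatives, which were the fit of genes with at least 10 reads (adjusted p = 0.0403), 1 fit of all 15 libraries (adjusted p = 0.0263) and the fit without 240 h ctrl replicate 3 (-1.14). For F11r the difference was 0.46 (SE 0.06, adjusted p = 0.000892), from a lower value at 48 h and a slightly higher one at 240 h, but under the fold threshold. By the adjusted p alone, 3 of 8 members differed, against 15.6% of genes, and among genes averaging 10 or more reads 5 of 9 members did, against 18.4%. For Cldn6 and Cldn7 it was -0.32 (95% confidence interval -0.61 to -0.03, adjusted p = 0.127) and -0.27 (95% confidence interval -0.52 to -0.02, adjusted p = 0.14).

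A comparison added after seeing the data set the 240 h effect against the 72 h effect, with 48 h ctrl as the reference at 72 h and 240 h ctrl at 240 h. It was called in 5 of 8 members, all more negative at 240 h, against 6.73% of 11416 genes called more negative. The differences were -1.82 for Cldn4, -1.59 for Cldn9, -1.33 for Tjp3, -0.80 for Cldn6 and -0.71 for Cldn7, with adjusted p-values from 3.91e-06 to 0.00177.

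The knockdown groups were also compared with each other, which involves no control libraries. Time in culture therefore cannot be told apart from the length of knockdown in these comparisons. From 48 h kd to 72 h kd, 4 of 8 members were called, all higher, against 7.45% of 11500 genes called in either direction and 4.17% called higher. Cldn3 rose by 1.20, Cldn4 by 0.76, Cldn9 by 0.67 and Tjp3 by 0.62 on the log2 scale, with adjusted p-values from 0.00185 to 0.0133. Without 48 h kd replicate 3, Cldn9 with 0.56 and Tjp3 with 0.57 were no longer called, and the count was 2. Cldn3 and Cldn4 stayed called whichever library was left out, at 1.01 or more and 0.589 or more (adjusted p at most 0.0284 and 0.0496). Over all genes the share called higher depended on the scaling, with 479 of 857 on FPKM and 697 of 1027 after rescaling to TPM. From 72 h kd to 240 h kd, 6 of 8 members were called, all lower, against 15.7% of 11463 genes called in either direction and 9.29% called lower. The log2 fold changes were -1.90 for Cldn4, -1.68 for Tjp3, -1.37 for Cldn3, -1.31 for Cldn9, -1.24 for Cldn6 and -1.11 for Cldn7. F11r with 0.30 and Tjp1 with 0.15 were higher in 240 h kd without passing the fold threshold. Over all genes 738 of 1803 called were higher in this comparison on FPKM and 1039 of 1929 on TPM, and the 6 members were lower on both scales.

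The controls give the background of time in culture. Between 240 h ctrl and 48 h ctrl no member was called, against 0.475% of 11359 genes, and by limma voom on recovered reads 1 was called. At an unadjusted p under 0.05, 5 of the 8 members differed, against 26.5% of the 11359 genes: Cldn3 by -0.83 (adjusted p = 0.0575), Cldn6 by -0.43 (adjusted p = 0.0504), Cldn7 by -0.40 (adjusted p = 0.0416), Tjp3 by -0.35 (adjusted p = 0.063) and Tjp1 by 0.19 (adjusted p = 0.116). Cldn3 was the member called by limma voom, at -0.85 (adjusted p = 0.0142). The 72 h comparison borrows the 48 h controls, and several of its values depended on that choice. With 240 h ctrl in their place Cldn4 and Tjp3 were called, Cldn6 and Cldn7 were at -0.045 and -0.18 and missed the p-value, and Cldn3 with 1.88 (adjusted p = 0.00049) and Cldn9 with 0.80 (adjusted p = 0.0155) were called as before.

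Within the set, some members followed each other across the 15 libraries. Pearson's r of log2(FPKM + 0.1) was 0.977 between Cldn6 and Cldn7, on chromosomes 17 and 11, and 0.948 between Cldn4 and Tjp3, on chromosomes 5 and 10. Tjp1 had a negative r with 7 of the other 8 members and 0.689 with F11r. These are descriptions over 15 libraries in 5 groups, in which group differences make up much of the spread. The pairs Cldn6 with Cldn7 and Cldn4 with Tjp3 had the highest r of the set, and r of the other pairs ran from -0.718 to 0.862. Neighbouring genes lay within the latter range. Cldn4 and Cldn3, 39279 bases apart, had r = 0.565. Cldn6 and Cldn9, whose 3' ends are 137 bases apart, had r = 0.359. Unless counting used strand, reads that run past the end of Cldn6 or Cldn9 could be counted for the neighbour.

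**Figure D4:**
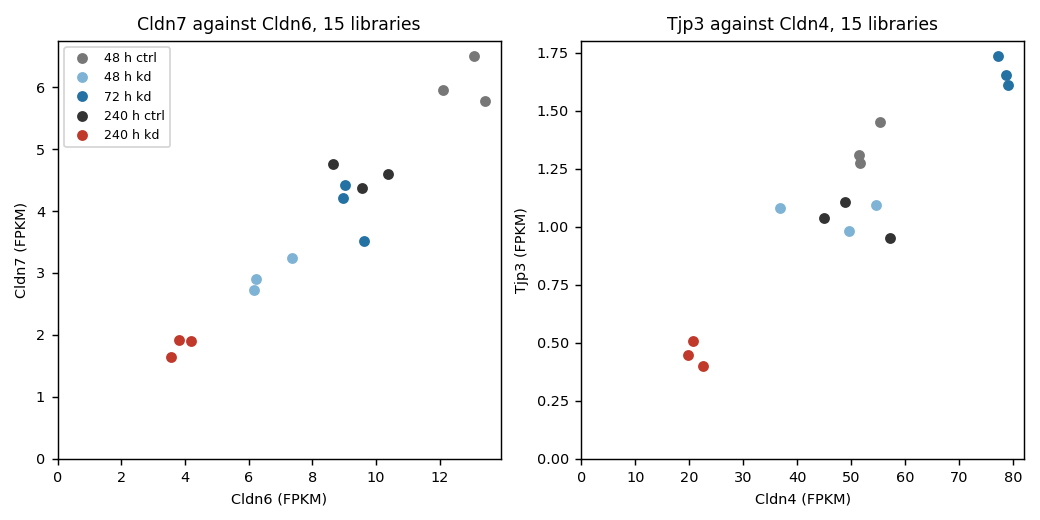
FPKM of Cldn7 against Cldn6 and of Tjp3 against Cldn4, with 1 point per library coloured by group and both axes from 0. The 240 h kd libraries are lowest in both plots, and the 72 h kd libraries are highest in the plot of Tjp3 against Cldn4 but overlap with 240 h ctrl in both genes in the plot of Cldn7 against Cldn6.

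Cldn4, the member whose group means spanned the widest range (1.90 on the log2 scale), was compared with 8850 other protein-coding genes. The 5 genes whose levels followed it most closely over the 15 libraries were Aplp2 (r = 0.971), Idh3a (r = 0.971), 4833439L19Rik (r = 0.970), Slc22a7 (r = 0.966) and Cyb5r3 (r = 0.964). Members were left out of the 8850 candidates, so Tjp3, with r = 0.948, could not appear. No tight junction gene of the wider list was among the 5. That list holds only 70 genes, so their absence says little about Cldn4.

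Overlapping genes could share reads with 3 members. Cldn3 shares 40 bases with Wbscr25 on the other strand, which had a mean of 5.33 reads, and Tjp3 shares 40 of its 18375 bases with Apba3, which had a mean of 538.8 reads against 252.5 for Tjp3. The 3 small genes within Tjp1 had means of at most 0.0667 reads.

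The wider list held 70 other tight junction genes, among them the remaining claudins. With a mean of at least 0.5 FPKM, 20, 19 and 21 of them were tested at 48 h, 72 h and 240 h. Of these, 0 rose and 2 fell at 48 h, 2 rose and 2 fell at 72 h, and 1 rose and 2 fell at 240 h. Of all genes tested in the same fits, 1.99% rose and 2.01% fell at 48 h, 8.23% and 5.30% at 72 h, and 4.79% and 4.12% at 240 h. The medians were -0.01, 0.13 and -0.09, beside 0.01, 0.01 and -0.0016 over all genes. Ildr1, a component of junctions where several cells meet, had 1.20 ± 0.0460 FPKM in 48 h ctrl and 1.23 ± 0.0251 in 240 h ctrl. It fell to 58.1% of control at 48 h, 44.3% at 72 h and 10.9% at 240 h, with log2 fold changes of -0.71 (adjusted p = 0.0026), -1.04 (adjusted p = 0.000105) and -2.51 (adjusted p = 9.81e-05). Crb3, a polarity protein of the apical membrane, fell by 0.68 at 48 h (adjusted p = 0.0353) and by 1.34 at 240 h (adjusted p = 0.000772), with a value of -0.31 at 72 h (adjusted p = 0.125). Cxadr, an adhesion protein of the junction, fell by 0.67 at 72 h (adjusted p = 0.00509).

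Among the same genes, Afdn, which links adhesion receptors to actin, rose by 0.77 at 72 h (adjusted p = 5.07e-05), and Jam2, a relative of F11r, rose by 0.64 (adjusted p = 0.000304). Esam, an adhesion molecule best known from endothelium, rose by 1.57 at 240 h (adjusted p = 0.00116). Among genes averaging 10 or more reads, 44 of the 70 were tested, and 1 rose and 2 fell at 48 h, 4 rose and 3 fell at 72 h, and 2 rose and 2 fell at 240 h, against 4.47%, 13.7% and 9.96% of all genes called. By direction these shares were 2.12% higher and 2.35% lower at 48 h, 8.11% and 5.61% at 72 h, and 5.21% and 4.75% at 240 h. The second gene that rose at 240 h in that fit was Cgnl1, which encodes paracingulin and was chosen after its values were seen, with a log2 fold change of 1.45 (adjusted p = 2.32e-05).

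A further list of 32 epithelial regulators and adhesion partners gave 0 higher and 4 lower of 19 tested at 48 h, 1 higher and 4 lower of 19 at 72 h, and 4 higher and 7 lower of 20 at 240 h. The shares of all genes were 1.99% higher and 2.01% lower, 8.23% and 5.30%, and 4.79% and 4.12%. Among list genes averaging 10 or more reads, 0 rose and 5 fell of 27, 1 and 6 of 28, and 5 and 9 of 29. The shares of all genes were then 2.12% and 2.35%, 8.11% and 5.61%, and 5.21% and 4.75%. E-cadherin (Cdh1), the adhesion molecule of the adherens junction, had log2 fold changes of -0.29 (adjusted p = 0.0122), -0.34 (adjusted p = 0.000424) and -0.94 (adjusted p = 7.03e-05), and only the last was past the fold threshold. Epcam, whose protein binds claudin-7, followed the same course with -0.35 (adjusted p = 0.048), -0.50 (adjusted p = 0.000171) and -1.20 (adjusted p = 0.000111). Cdh3 fell by 1.14, Spint2 by 0.69 and St14 by 0.66 at 240 h. Spint2 and St14 encode a membrane protease inhibitor and the protease matriptase.

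Among transcription factors, Klf4 fell at all 3 times, by 0.87, 0.76 and 1.20 (adjusted p = 0.000832, 5.75e-05 and 0.000124). Tfap2c fell by 0.61 at 48 h and rose by 0.92 at 72 h and by 0.64 at 240 h. Grhl2, a grainyhead-like activator of epithelial junction genes, was under the FPKM minimum because of its length, with 53 to 406 reads per library. It fell to 36.4% of control at 48 h, 14.96% at 72 h and 36.7% at 240 h. In the fit of genes with at least 10 reads its log2 fold changes were -0.84 (adjusted p = 0.000335), -1.28 (adjusted p = 6.58e-06) and -0.80 (adjusted p = 0.000117), values that the added 0.1 FPKM makes smaller than the ratios. Ovol2, a repressor of Zeb1, stood at 43.9% of control at 240 h, with a log2 fold change of -0.66 (adjusted p = 0.00113).

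The splicing regulators Esrp1 and Esrp2, which maintain epithelial isoforms, were called at 48 h or 72 h and not at 240 h. Esrp1 fell by 0.70 at 48 h (adjusted p = 0.00313) and by 0.86 at 72 h (adjusted p = 0.000166), with -0.33 at 240 h (adjusted p = 0.013). Esrp2 fell by 0.58 at 72 h (adjusted p = 0.00192), and the catenin gene Ctnnd1 fell by 0.70 (adjusted p = 0.000116). The difference between 240 h and 48 h was tested for Esrp1 and was 0.38 (adjusted p = 0.0138), under the fold threshold.

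The list also held factors and proteins of mesenchymal states, which went in both directions. Zeb1, a repressor of epithelial genes, stood at 203%, 226% and 220% of control at the 3 times, from 111 to 479 reads. Its log2 fold changes in the fit of genes with at least 10 reads were 0.47 (adjusted p = 0.00237), 0.56 (adjusted p = 0.000171) and 0.62 (adjusted p = 8.36e-05), and only the last was past the fold threshold on this scale. Snai1, another repressor of Cdh1, rose by 1.07 at 240 h (adjusted p = 0.0024), from 18 to 22 reads to 44 to 64. Zeb2 was not called at any time, with 0.01 at 240 h (adjusted p = 0.857). Vim, the intermediate filament vimentin, rose by 1.44 (adjusted p = 6.01e-05) and Twist1 by 0.70 (adjusted p = 0.0255), the latter from a mean of 34.1 reads. Fn1, the matrix protein fibronectin, which is commonly high in mesenchymal cells, fell by 0.88 at 48 h and by 2.43 at 240 h (adjusted p = 0.000982 and 3.8e-05). At 72 h Fn1 stood at 85.0% of the 48 h control and was not called.

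**Figure D5:**
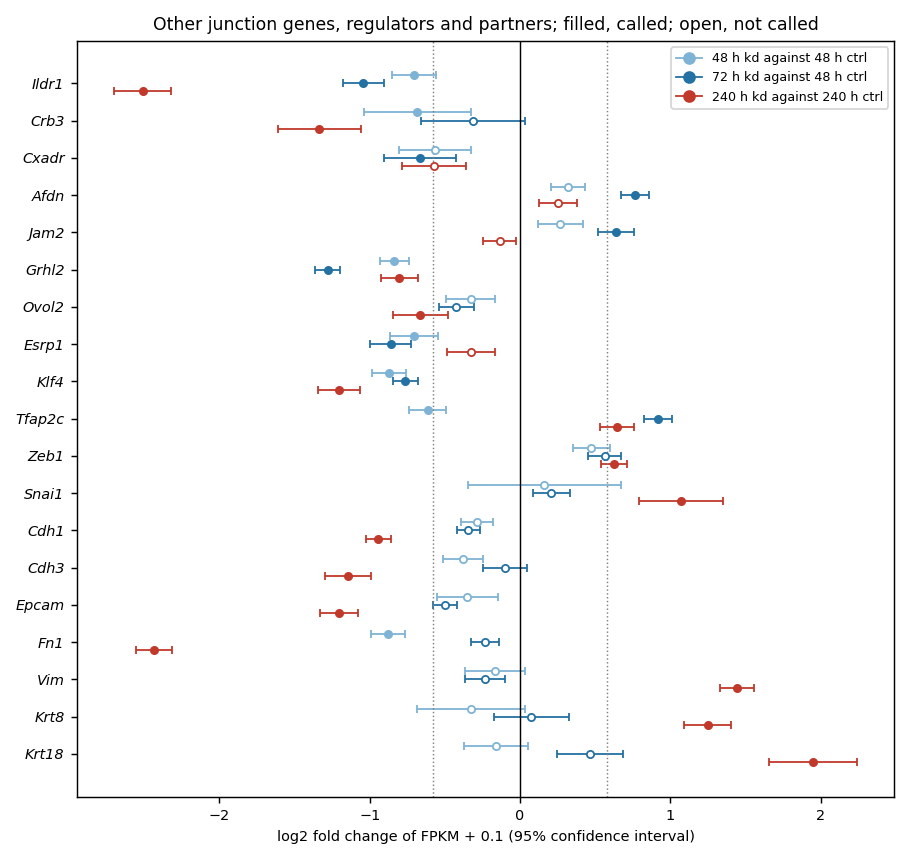
Log2 fold change on the FPKM + 0.1 scale of 5 other junction genes (Ildr1 to Jam2), of regulators and adhesion partners (Grhl2 to Vim) and of the keratins Krt8 and Krt18 in the 3 knockdown comparisons, with 95% confidence intervals and filled points for called genes, from the fit of genes with at least 10 reads. Ildr1, Grhl2 and Klf4 are called lower at all 3 times, and Cdh1, Cdh3 and Epcam at 240 h.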

How the data were processed

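RNA-seq was analysed in 15 libraries of 5 groups, taken from the labels. According to the methods and the submitters' processing notes, the authors aligned single-end reads with STAR 2.7.0c to mm10 (GRCm38.p6), built count tables per gene and used DESeq2 1.30.0 in R 4.0.3. The deposited values are FPKM per gene. Multiplied by gene span and library total, 100% of values gave whole reads (tolerance 0.001), so reads were counted over whole spans, introns included, and 11074998 to 14515300 reads per library stand behind them. Reads summed over genes exceeded the library totals by 7.38% to 8.34%, so some reads may have been counted for more than 1 gene. Whether counting used strand is not given in the sources used here. Identifiers come from GENCODE M21, which matched 53297 of 55228 genes, and promoters from RefSeq. Intervals cover the spread between libraries.

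Differences were tested two-sided in R 4.3.3 with limma 3.58.1 (eBayes with trend) on log2(FPKM + 0.1), over genes averaging 0.5 FPKM or more, with Benjamini-Hochberg adjustment and calls at 0.05 and 0.58. Every adjusted p is from limma. Exact permutation of 3 against 3 cannot go below 0.1 and was not used. The fit was tested on simulated data. Members and gene lists were chosen with earlier results of these data known. Named were all members and 5 genes most like the widest-ranging member. From the fit of genes averaging 0.5 FPKM or more came called junction genes with at least 50 reads (at most 4 per direction) and called regulators. To these were added 8 set regulators. Not every regulator called only in the fit of genes with at least 10 reads is named. Alternatives covered pseudocounts, minima, scaling, fits, controls, the replicate block, limma voom and libraries left out. Tables were handled with Python 3.11.15, pandas 2.3.3 and numpy 2.4.6, and plots drawn with matplotlib 3.10.9. Protein sequences were not used here.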

Additional observations from a re-analysis of the deposited data

Results flagged for a closer look

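The difference between the knockdown effects at 240 h and 48 h, tested directly over 12 libraries with limma, had an adjusted p under 0.05 for 3 of 8 members, against 15.6% of all genes, and for 2 more among genes with at least 10 reads, where the share of all genes was 18.4%. For Cldn4 it was -1.07 (SE 0.19, adjusted p = 0.00498), from -0.19 at 48 h to -1.26 at 240 h. For Tjp3 it was -0.71 (SE 0.12, adjusted p = 0.00339), from -0.33 to -1.04. For F11r it was 0.46 (SE 0.06, adjusted p = 0.000892), from -0.32 to 0.14, which is under the fold threshold. In the fit of genes with at least 10 reads, it was -0.92 for Cldn9 (SE 0.27, adjusted p = 0.0403), from 0.41 to -0.51, where the fit of genes over 0.5 FPKM gave an adjusted p of 0.0521. For Ocln in the former fit it was -0.38 (SE 0.10, adjusted p = 0.0191), from -0.11 to -0.49, also under the fold threshold.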

How the results depend on the processing

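Over all alternatives, 1181 of the values of single members kept their sign and their side of the threshold, 24 became called, 7 were no longer called and 12 changed sign. The counts of called members changed by over 1.5 times in these cases. At 72 h the 2 called members became 1 with a minimum of 2 FPKM and 4 with quantile normalization or with 240 h ctrl as control. Between the controls, 0 became 1 (Cldn3) with a minimum of 2 FPKM, TPM, 1 fit of 15 libraries or limma voom. From 48 h kd to 72 h kd, 4 became 2 with a pseudocount of 1 or a minimum of 2 FPKM. For the 240 h effect minus the 48 h effect, 2 became 1 with either, and for the 240 h minus the 72 h effect, 5 became 3 with a minimum of 2 FPKM. That minimum leaves only 4 members tested, and the cause of the other changes was not tested. Leaving out 1 library gave 2 to 2 called members at 48 h, 2 to 3 at 72 h, 4 to 6 at 240 h, 0 to 0 between controls, 2 to 4 from 48 h kd to 72 h kd, 6 to 6 from 72 h kd to 240 h kd, 2 to 3 for the 240 h minus the 48 h effect and 5 to 6 for the 240 h minus the 72 h effect. In the last, Cldn3 was called without 240 h ctrl replicate 1 (-0.71) or 240 h kd replicate 2 (-0.69), and Cldn7 was not called with a pseudocount of 1 (-0.50).

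The changes of sign concerned values that were not called. Tjp1 at 72 h was -0.0055 when centred on the median, -0.040 with quantile normalization and -0.17 against 240 h ctrl, and -0.019 to 0.049 when 1 library was left out. With 1 library left out, Tjp1 at 240 h was -0.050 to 0.014, its 240 h minus 72 h effect -0.071 to 0.00085 (0.010 with quantile normalization), Cldn3 at 48 h -0.25 to 0.048, and Cldn4 between controls -0.17 to 0.0025. Between controls with TPM, Cldn4 was 0.037 and F11r 0.031. TPM moved the median of all genes between the controls from -0.02 to 0.09.

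Replicate numbers are shared between groups, but deviations of same-numbered libraries correlated at -0.105 to 0.142, so the numbers were not taken to pair the libraries. With the replicate block, 2, 2 and 4 members were called at 48 h, 72 h and 240 h, 0 between controls, 4 and 6 between kd groups, and 2 and 5 for the differences of effects, the same counts as without it. Over all genes, the 54 calls between controls became 2 to 10 with 1 library left out and 168 after rescaling to TPM. The block gave 0 calls in place of these 54, and 285 in place of 456 at 48 h. Without it, calls over all genes at 48 h, 72 h and 240 h were 456, 1548 and 1016, against 208, 745 and 541 with a pseudocount of 1, 208, 768 and 453 with a minimum of 2 FPKM, and 1485, 3642 and 2998 with limma voom. Cldn9, with 11 to 34 reads, and Cldn3, with 21 to 116, are the members that depth limits most.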

Other observations

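At 240 h, when Cldn4, Cldn6 and Cldn7 were called lower, some keratins were called higher. Of 6 markers of surface ectoderm or simple epithelium, summed levels were 3.34 to 4.14 FPKM in 240 h ctrl and 10.2 to 10.8 FPKM in 240 h kd. Krt8 and Krt18, which encode the paired keratins of simple epithelia, had log2 fold changes of 1.25 (limma adjusted p = 0.000146) and 1.95 (adjusted p = 0.000302) at 240 h, from 129 to 143 reads up to 321 to 404 for Krt8 and from 69 to 101 up to 353 to 364 for Krt18. At 48 h the values were -0.33 (adjusted p = 0.208) and -0.16 (adjusted p = 0.271), and the difference between 240 h and 48 h was 1.58 and 2.11 (adjusted p = 0.000271 and 3.49e-05). At 72 h Krt8 and Krt18 stood at 106% and 141% of the 48 h control, and neither was called. Krt19, a further keratin of simple epithelia, was lower at all 3 times in the fit of genes with at least 10 reads, with -1.67, -1.13 and -1.02 (adjusted p = 0.000801, 0.000252 and 0.000148) from a mean of 33.4 reads.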
